A study of Mus musculus with 3 samples.

Results

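The Isg15 conjugation and removal genes are the 5 genes that make the ubiquitin-like modifier ISG15, attach it to proteins and take it off again. They were picked by symbol (Isg15, Uba7, Ube2l6, Herc6 and Usp18) from the 55450 annotated genes of the gene table, and all 5 were found. The cells were macrophages grown from bone marrow of C57BL/6J mice and exposed to lipid A (100 ng/ml), the membrane anchor of bacterial lipopolysaccharide that TLR4 senses, for 120 min. RNA of the chromatin fraction, which is rich in transcripts still being made or spliced, was depleted of ribosomal RNA and sequenced in 3 libraries, labelled biological replicates 1, 2 and 3 and made from 1 µg, 250 ng and 500 ng of RNA. The replicates carry the same donor label, sex and age were not collected, and nothing says whether the cultures were separate, so the p-values below measure the spread between these libraries, which may be technical. There is a single group and no unstimulated library was analysed here, so the values describe levels 120 min after lipid A and not a response to it.

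ISG15 is joined to lysines of target proteins by the same kind of cascade that joins ubiquitin. The E1 enzyme Uba7 activates the modifier, the E2 enzyme Ube2l6 carries it, and a HERC-family E3 ligase, Herc6 in the mouse, passes it to proteins that are often still being translated. Usp18 is the protease that removes ISG15, and it also restrains type I interferon signalling by binding a receptor chain. All 5 are textbook interferon-stimulated genes, switched on through STAT2 and IRF9, and macrophages make the interferon that turns them on after TLR4 is engaged.

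The gene table held 19919358, 20430415 and 22023921 expected counts in replicates 1, 2 and 3. Macrophage markers were present, with 9 of 10 at 1 TPM (a level divided by transcript length and scaled to a common total) or more in every library. T cell markers summed to at most 0.02 TPM, with 3 of 4 listed at 0, and B cell markers to at most 0.43 TPM. Neutrophil, fibroblast and endothelial lists reached at most 2.67, 0.81 and 0.69 TPM. The plasmacytoid dendritic cell list was split. Siglech and Klk1 were at 0.06 TPM or less in every library, while Tcf4 (215 ± 64.2 TPM) and Bst2 (38.1 ± 9.41 TPM; SD) gave its summed 197 to 325 TPM. This list therefore does not settle whether such cells were present. Replicate 2 stood apart: 10 genes of abundant cytoplasmic mRNAs summed to 2103 TPM there and to 648 and 671 TPM in replicates 1 and 3, and 5 mitochondrial genes to 2270 against 156 and 230 TPM. The part of that difference in the results below was not tested.

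All 5 genes were detected in chromatin RNA, and their levels ran in the order Herc6, Uba7, Usp18, Isg15 and Ube2l6. Each passed 1 TPM in every library, as did 37.5% of the 21951 protein-coding genes. By mean TPM Herc6 ranked 55th among those genes, Uba7 152nd, Usp18 356th, Isg15 670th and Ube2l6 3091st. The modifier was therefore not the highest of its own set at gene level. In bulk RNA, fewer cells making a transcript and less RNA per cell cannot be told apart. That order changed when only isoforms annotated as protein-coding were counted, which put Isg15 first and Uba7 last, as described for each gene below. Isg15 has a single annotated isoform, so its whole level counts as coding by annotation, which is not so for the others.

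**Figure D1:**
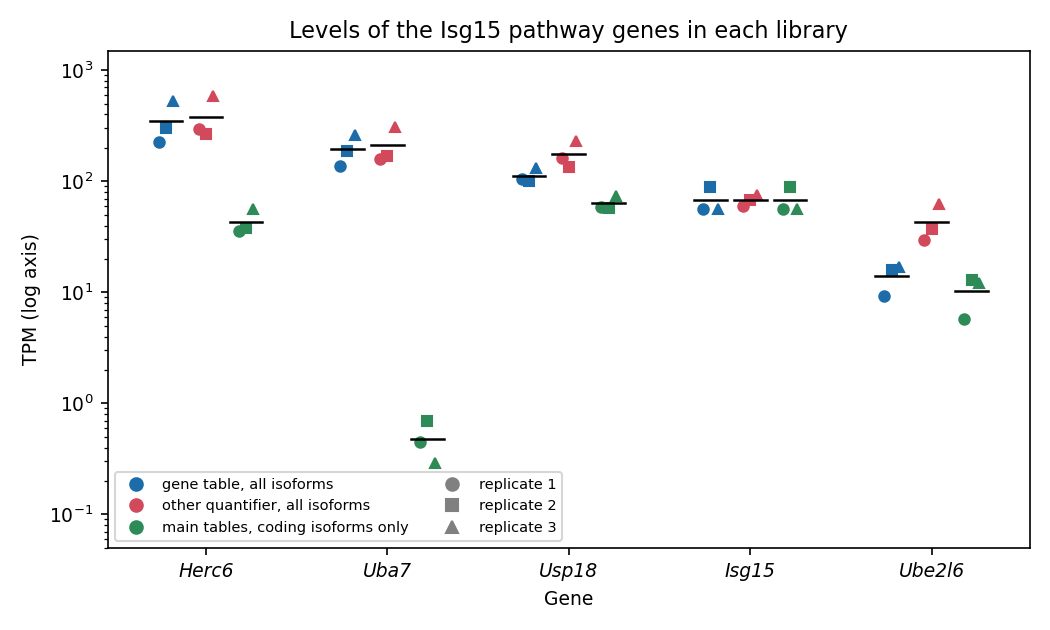
TPM (log axis) of the 5 genes in each library from the gene table (blue), from the other quantifier (red) and from protein-coding isoforms alone (green). Circles, squares and triangles are replicates 1, 2 and 3 and bars are means. Uba7 holds 136 to 262 TPM over all isoforms and 0.29 to 0.69 TPM in its coding isoform.

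Isg15 encodes the modifier itself. The gene (ENSMUSG00000035692.6) lies on the minus strand of chromosome 4, positions 156199424 to 156200818 of mm10, with 2 exons around an intron of 639 nt and a single annotated isoform, Isg15-201. Its upstream region is shown because it carries the interferon-stimulated response element, the DNA site bound by complexes that hold STAT2 and IRF9. The 250 bases before the RefSeq start (GRCm38.p6, chr4:156200819-156201068, minus strand) are printed 5′ to 3′, with the run that holds the element in capitals.
Isg15 upstream: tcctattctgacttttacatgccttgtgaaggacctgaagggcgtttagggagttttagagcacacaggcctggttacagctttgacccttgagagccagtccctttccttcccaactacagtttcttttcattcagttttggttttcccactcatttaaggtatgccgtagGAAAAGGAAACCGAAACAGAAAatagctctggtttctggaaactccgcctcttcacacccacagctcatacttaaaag
Within the capitals, the motif (GAAA, any 2 bases, GAAA) was found 3 times in overlapping matches starting at -78 (GAAAAGGAAA), -72 (GAAACCGAAA) and -66 (GAAACAGAAA) from the start. Of 32817 RefSeq windows from 250 bases before to 50 after a start, 3.43% hold that motif on either strand. The windows of Uba7, Ube2l6 and Herc6 hold no match to it. None of these 4 windows holds the kappaB motif (GGGA, any 4 bases, CC), which 20.7% of all windows do. These are matches of letters, and the absence of one in a short window says nothing about the factor.

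Isg15 stood at 56.6, 88.7 and 56.8 TPM in replicates 1, 2 and 3 (67.4 ± 18.5, SD, n = 3), from 726, 929 and 636 expected counts. Replicate 2 was the high library, and replicates 1 and 3 were level with each other, at a mean of 56.7 TPM without replicate 2. The other quantifier, run by the authors directly on the reads, gave 60.1, 68.6 and 75.7 TPM (68.2 ± 7.80, SD, n = 3), with replicate 3 and not replicate 2 the highest. The mean was thus alike by both tables while the order of the libraries was not. No annotated isoform holds the intron, so unspliced Isg15 RNA has no model to which intron reads could be assigned. A share of 13.1% of the 31-nt windows of Isg15 also occurs in other genes, most of it in AC151275.1 (10.2%).

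Among 14 ubiquitin-like modifiers Isg15 had the highest level in each of the 3 libraries. Rps27a, which encodes ubiquitin fused to a ribosomal protein, followed at 20.4, 74.3 and 20.2 TPM, with replicate 2 far above the others, and Ubd, encoding the modifier FAT10, was lowest at 0.0233 TPM. By the other quantifier Isg15 came second. Against Ubb, a polyubiquitin gene read here as the housekeeping counterpart, Isg15 was 4.11-fold higher (log2 difference 2.04 ± 0.78, SD). The difference was 2.25, 1.18 and 2.69 in replicates 1, 2 and 3, lowest in replicate 2, where Ubb stood at 39.2 TPM against 11.8 and 8.69 TPM, and averaged 2.47 without that library. Its sign held in 3 of 3 libraries, and flipping signs over the libraries (exact, two-sided) gave p = 0.25, adjusted 0.3125 over 5 pairs, the smallest p that 3 libraries allow being 0.25.

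Uba7 encodes the E1 enzyme, which activates ISG15 and starts the cascade. The gene (ENSMUSG00000032596.14) lies on the plus strand of chromosome 9, positions 107975505 to 107984060 of mm10, and is compact, with 24 exons and 23 introns that sum to 5328 nt. It has 15 annotated isoforms, of which only Uba7-201 is protein-coding. Its introns carry the finding, so the whole of intron 15 (85 nt) is shown with 10 exon bases on each side (mm10, chr9:107979449-107979553, plus strand), and the start of intron 8 (376 nt, chr9:107977466-107977495) with 10 exon and 20 intron bases. Capitals mark the first and last dinucleotides of the intron, where splicing would cut.
Uba7 intron 15: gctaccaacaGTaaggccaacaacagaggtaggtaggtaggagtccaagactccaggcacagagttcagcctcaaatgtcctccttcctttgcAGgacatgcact
Uba7 intron 8, 5′ end: atgggatcctGTgagtggccccacatcgcg
Uba7 intron 8, 3′ end: gcctgagtgccatcccacAGgatgatgcag
Both introns open with GT and close with AG, the usual splice dinucleotides, so the isoforms that keep them keep introns with ordinary ends. The 3′ end of intron 8 is chr9:107977832-107977861.

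At gene level Uba7 stood at 136, 187 and 262 TPM (195 ± 63.4, SD, n = 3), from 6010, 6906 and 10508 expected counts, with replicate 3 the highest. Isoforms annotated as retaining an intron held 84.8% ± 1.66 of that (SD, n = 3), those annotated for nonsense-mediated decay 12.1% ± 1.25, and the coding isoform 0.270% ± 0.14. By expected counts, which do not weight short isoforms up, the coding share was 0.442% ± 0.23. Uba7-201 was listed at 0.45, 0.69 and 0.29 TPM, from 31.8, 42.8 and 18.5 counts with posterior SDs of 22.3, 18.7 and 13.6 counts in the authors' tables. A level this close to its own uncertainty is hardly told from 0. The other quantifier gave a coding share of 0.0505%.

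The isoforms that hold Uba7 reads are spliced in part. Uba7-210, of 3620 nt, has 22 exons and is spliced throughout except at introns 8 and 15; it stood at 17.1, 22.4 and 37.1 TPM. Uba7-215 differs mainly by keeping intron 8 alone and stood at 11.9, 11.5 and 14.0 TPM. Uba7-202, which differs from the coding form mainly by keeping intron 15, was listed at 0 in every library by both quantifiers. Uba7-207 covers the 3′ side with 1756 of its 2353 nt in introns, at 20.4, 36.7 and 57.3 TPM. Uba7-206 keeps introns 2, 12, 13 and 15 whole and stood at 21, 27.5 and 37.3 TPM. The short Uba7-203, at 24.6, 33.8 and 49.7 TPM, rests on only 90.5, 84.5 and 140 counts, since 362 nt is close to the labelled fragment size of 250 to 400 and the division by effective length weights it up.

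Kept and removed forms of single Uba7 introns were compared by summing the isoforms of each kind. Intron 8 was kept in 60.5%, 60.4% and 63.0% of the TPM of isoforms that keep or splice it (29.0, 33.9 and 51.0 TPM kept), and intron 15 in 55.3%, 59.7% and 62.9% (38.1, 49.9 and 74.4 TPM kept). Both exceeded 50% in every library and also by the other quantifier (55.6% and 57.6%). Intron 20 came to 42.3%, 52.1% and 50.4%. The other 7 introns that some isoform keeps whole (2, 5, 12, 13, 17, 19 and 23) lay between 22.9% and 38.5%. Isoforms with any intron sequence cover 65.0% of the intron bases of Uba7, and 13 of its 23 introns are kept whole by no annotated isoform, so their shares of 0 reflect the annotation.

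**Figure D2:**
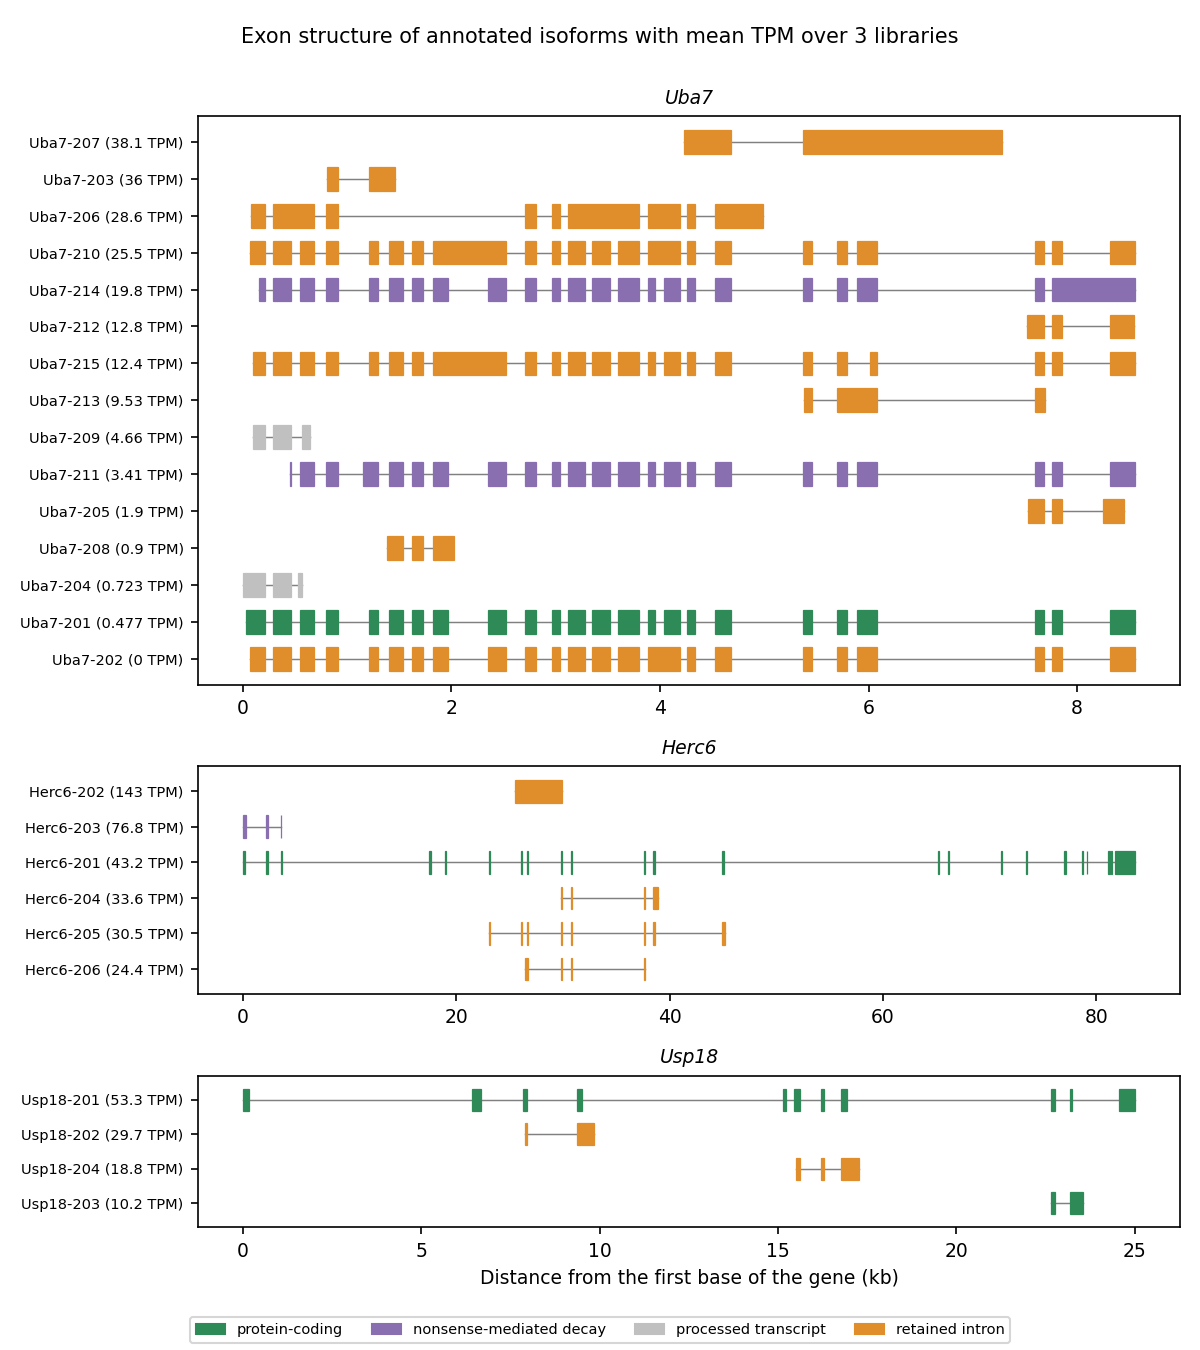
Exons (boxes) of every annotated isoform of Uba7, Herc6 and Usp18 by distance from the first base of the gene in kb, coloured by annotated class and sorted by mean TPM over 3 libraries. For Uba7 the coding isoform lies near the bottom at 0.477 TPM while Uba7-207, mostly intron, is at the top at 38.1 TPM; for Herc6 the top isoform is a single block inside the gene at 143 TPM.

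Among 10 E1 genes Uba7 ranked first in each library, ahead of Nae1 and Uba3, the subunits of the NEDD8-activating enzyme, at 33.4 ± 6.74 and 24.0 ± 6.42 TPM (SD, n = 3). Mocs3, an E1-like sulfur transferase, was lowest at 0.957 TPM. By coding isoforms alone Uba7 ranked 10th of 10 and Uba1, the main ubiquitin E1, first at 16.0 TPM. Against Uba1, Uba7 was 7.89-fold higher over all isoforms (log2 difference 2.98 ± 0.36, higher in 3 of 3 libraries, exact p = 0.25, adjusted 0.3125). Over coding isoforms it was lower in each library, at 0.45, 0.69 and 0.29 TPM against 15.1, 17.7 and 15.1 TPM, with no fold given because the Uba7 level is so uncertain. The direction of this comparison thus depends on which isoforms are counted. The gene Gm20661 overlaps the 3′ end of Uba7 on the same strand, shares 2.89% of its 31-nt windows and stood at 0.747 TPM.

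Ube2l6 encodes the E2 enzyme that carries activated ISG15 to the ligase. The gene (ENSMUSG00000027078.14) lies on the plus strand of chromosome 2, positions 84798828 to 84810335, with 4 exons and 4 annotated isoforms. It was the lowest of the set in every library, at 9.35, 15.8 and 16.8 TPM (14.0 ± 4.03, SD, n = 3), from 217, 375 and 380 counts. The other quantifier put it 3.07 times higher, at 29.4, 36.9 and 62.3 TPM, of which 12.3, 15.4 and 31.6 TPM fell on the short coding isoform Ube2l6-202 (343 nt), listed at 0 in every library of the main tables. By both tables it remained the lowest of the 5 genes.

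Most Ube2l6 signal was coding. The coding isoforms held 61.1%, 81.5% and 71.9% of TPM and the retained-intron isoform Ube2l6-204 32.9%, 15.6% and 26.9%, with the lowest retained share in replicate 2. Ube2l6-204 starts inside intron 2 and crosses its 3′ splice site, shown with 20 intron and 10 exon bases (chr2:84806317-84806346, plus strand, the closing AG in capitals).
Ube2l6 intron 2, 3′ end: agtctcttctctttgatcAGgaccagcttc
It rests on 22.7, 13.9 and 27.8 counts, so its share is poorly determined, and by counts the coding isoforms held 89.8% ± 5.41.

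The E2 genes were listed as the 37 protein-coding genes with symbols starting Ube2, by symbol and not by function. In that list Ube2l6 ranked 14th by mean TPM, 6th by the other quantifier and 8th by coding isoforms. Ube2f, a NEDD8 E2, led at 103 ± 13.3 TPM, followed by the ubiquitin E2 Ube2d3 (85.8 ± 15.6; SD, n = 3), while Ube2u was listed at 0. Ube2l6 and its closest relative Ube2l3, a ubiquitin E2, were not told apart: the log2 difference was 0.51, -0.22 and 0.28 (mean 0.19 ± 0.37, or 0.40 without replicate 2, exact two-sided sign-flip p = 0.5, adjusted 0.5), and over coding isoforms it was -0.28 ± 0.21. Ube2l6 shares 15.5% of its 31-nt windows with other genes, 9.68% with Gm17167.

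Herc6 encodes the E3 ligase that performs most ISG15 conjugation in mouse cells. The gene (ENSMUSG00000029798.11) is the longest of the set, 83633 nt on the plus strand of chromosome 6, positions 57581000 to 57664632, with 23 exons and 6 annotated isoforms. It was the highest of the 5 genes in every library, at 226, 301 and 526 TPM (351 ± 156, SD, n = 3), from 11544, 15529 and 29098 counts. Replicate 3 held 2.33 times the TPM of replicate 1. By the other quantifier the values were 293, 269 and 582 TPM, with replicate 3 again highest.

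An internal block held the largest share of Herc6 TPM. Herc6-202 is a single exon of 4378 nt annotated as a retained intron, which keeps introns 7 and 8 whole and has 4081 of its bases in introns. It stood at 64.0, 124 and 240 TPM (143 ± 89.6, SD, n = 3), from 6289, 10733 and 21813 counts, with the libraries in the same order as for Herc6 as a whole. The coding isoform Herc6-201 stood at 35.4, 38.0 and 56.1 TPM (43.2 ± 11.2), and the other isoform of many exons, Herc6-205, at 36.6, 32.2 and 22.7 TPM, with the libraries in the opposite order. The 5′ ends of introns 7 (455 nt) and 8 (3095 nt) are shown with 10 exon and 20 intron bases (chr6:57607169-57607198 and chr6:57607698-57607727, plus strand), the opening GT in capitals.
Herc6 intron 7, 5′ end: gctgcagaggGTatgaatatttccactagc
Herc6 intron 8, 5′ end: tcgggtatcaGTatgtgttattccttttta
Intron 7 was kept in 47.0%, 63.8% and 75.3% of the TPM of isoforms that keep or splice it, and intron 8 in 42.0%, 57.5% and 67.8%. The other quantifier gave 57.7% and 49.6% for introns 7 and 8. Spliced TPM was 72.1, 70.2 and 78.7 at intron 7, where the sum joins Herc6-201, highest in replicate 3, and Herc6-205, lowest there. At intron 8 spliced TPM was 88.5, 91.4 and 114, also highest in replicate 3, but less so than the kept form.

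**Figure D3:**
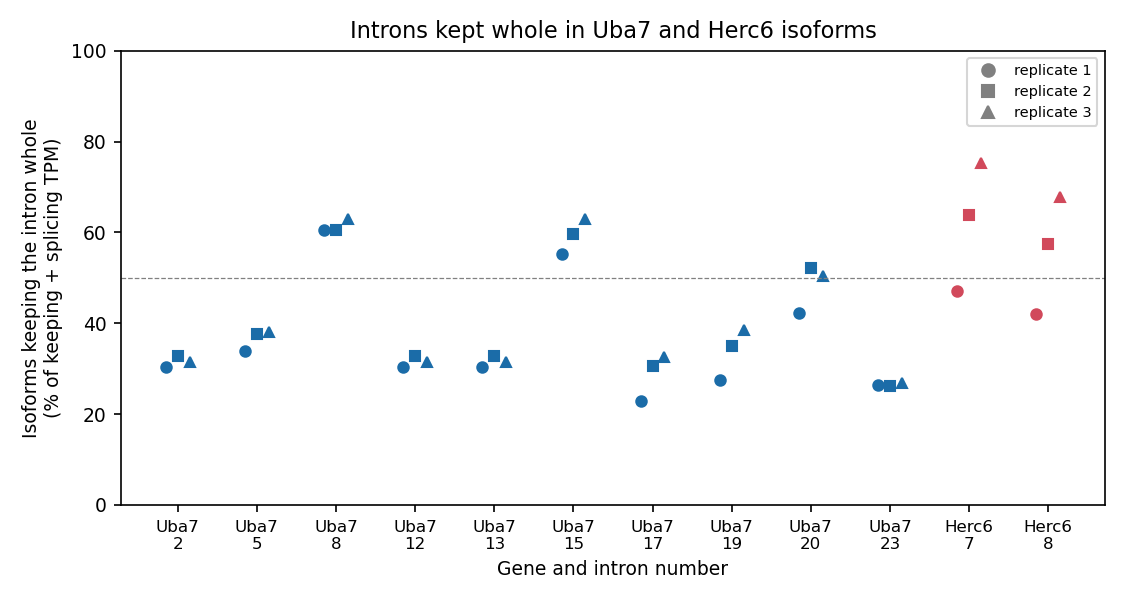
Share of TPM in isoforms that keep an intron whole, among those that keep or splice it, for the 10 Uba7 introns (blue) and 2 Herc6 introns (red) that any annotated isoform keeps whole. Points are replicates 1, 2 and 3 (circle, square, triangle) and the dashed line is 50%. Uba7 introns 8 and 15 lie above the line in every library, and the Herc6 introns spread from 42.0% to 75.3%.

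Over the gene, retained-intron isoforms held 65.5% ± 2.47 of Herc6 TPM, the 449-nt decay isoform Herc6-203 21.5% ± 1.76 and Herc6-201 13.0% ± 2.54 (SD, n = 3). By counts the coding share was 25.1% ± 7.10 and that of Herc6-203 only 1.95% ± 0.40, since short isoforms weigh more in TPM. Annotated isoforms cover 5.74% of the 78866 intron bases. Reads from the rest of the introns of this long gene have no model. The block of Herc6-202 is the longest stretch where intron reads could be counted. Shorter ones outside it lie in Herc6-204 (294 nt of intron 12), Herc6-205 (127 nt of intron 13) and Herc6-203 (23 nt of intron 1). The non-coding gene Gm45193 overlaps Herc6 over 45031 nt on the same strand, stood at 61.4, 49.2 and 84.2 TPM and shares 12.7% of the 31-nt windows of Herc6. Shared windows make up 25.0% of Herc6-201 and 40.8% of Herc6-203 but 4.90% of Herc6-202. In the other retained-intron isoforms they make up 59.0% (Herc6-205), 58.8% (Herc6-206) and 41.5% (Herc6-204). The levels of all Herc6 isoforms other than Herc6-202, coding or retained-intron, are thus uncertain, and so are the spliced sums at introns 7 and 8. Gm45193 also spans the block of Herc6-202, and whether its unspliced RNA adds to the block was not tested. The pseudogene Gm19244 lies inside Herc6 on the opposite strand (32.3 ± 15.6 TPM), and without a known strand setting their reads cannot be told apart.

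Herc6 ranked first of 5 HERC genes in each library. Herc4 and Herc1, both ubiquitin ligases, followed at 48.2 ± 12.04 and 47.6 ± 13.6 TPM, and Herc3 was lowest at 4.79 ± 0.095 TPM (SD, n = 3). Against Herc4, Herc6 was 6.96-fold higher (log2 difference 2.80 ± 0.37, higher in 3 of 3 libraries, exact p = 0.25, adjusted 0.3125). Over coding isoforms the difference was 1.77 ± 0.26, again in 3 of 3 libraries.

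Usp18 encodes the protease that removes ISG15. The gene (ENSMUSG00000030107.10) lies on the plus strand of chromosome 6, positions 121245906 to 121270917, with 11 exons and 4 annotated isoforms. It stood at 104, 101 and 131 TPM (112 ± 16.2, SD, n = 3), from 2360, 1919 and 2565 counts, with a CV of 14.5% in gene-table TPM, against 27.4% to 44.6% for the other 4 genes. The other quantifier gave 162, 134 and 231 TPM, 1.57 times the mean (175.5 ± 50.1, SD, n = 3), a wider relative spread than that of Isg15 there.

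By annotated class, Usp18 was split between coding and retained-intron isoforms in nearly the same proportion in every library. The coding isoforms held 56.0%, 57.4% and 56.7% of its TPM and the retained-intron ones 44.0%, 42.6% and 43.3%, and the other quantifier gave the latter 43.3%. By counts the coding share was 82.2% ± 0.86, because the isoforms that run into introns are short. Usp18-201, the full-length form, stood at 51.8, 48.4 and 59.8 TPM. The retained-intron forms Usp18-202 and Usp18-204 run into introns 4 and 8 and end there, at 34.2, 25.8 and 29.1 TPM and at 11.5, 17.3 and 27.5 TPM. Usp18-203, annotated as coding, likewise runs into intron 10 (6.48, 9.75 and 14.3 TPM). With it, isoforms holding any intron bases came to 50.2%, 52.3% and 54.2% of Usp18 TPM, rising from replicate 1 to 3. The exon-intron junctions that these forms read through are shown with 10 exon and 20 intron bases, the opening GT in capitals (chr6:121255400-121255429, chr6:121262817-121262846 and chr6:121269138-121269167, plus strand).
Usp18 intron 4, 5′ end: aacgtgccgtGTaagagtcctctcagctcc
Usp18 intron 8, 5′ end: caaggaacagGTgaggcttgccttccaccc
Usp18 intron 10, 5′ end: gataccgctgGTaagagaagggctgggttc
Gm44148, a long non-coding RNA on the opposite strand, overlaps 15715 nt of the gene at 2.47 ± 1.29 TPM, or 30.0 TPM by the other quantifier.

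The ubiquitin-specific proteases were listed as the 56 protein-coding genes with symbols of Usp followed by a digit, by symbol and not by function. In that list Usp18 ranked first in each library by gene-table TPM. It also ranked first by mean TPM in the other quantifier and over coding isoforms. Its coding mean of 63.5 TPM includes Usp18-203 (10.2 TPM), which runs into intron 10. The full-length Usp18-201 alone, at 53.3 TPM, lay below the coding isoforms of Usp9x (55.9 TPM). The first place over coding isoforms thus rests on counting Usp18-203 as coding. By gene-table TPM Usp15 and Usp7, which remove ubiquitin, followed Usp18 at 79.0 ± 12.8 and 74.3 ± 10.3 TPM (SD, n = 3). The list median was 5.54 TPM, and Usp9y was listed at 0. Usp18 exceeded Usp7 by 0.63, 0.54 and 0.60 on the log2 scale (mean 0.59 ± 0.05, exact p = 0.25, adjusted 0.3125), the narrowest spread of the 5 pairs. Over coding isoforms the difference widened to 5.36-fold (2.42 ± 0.08).

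**Figure D4:**
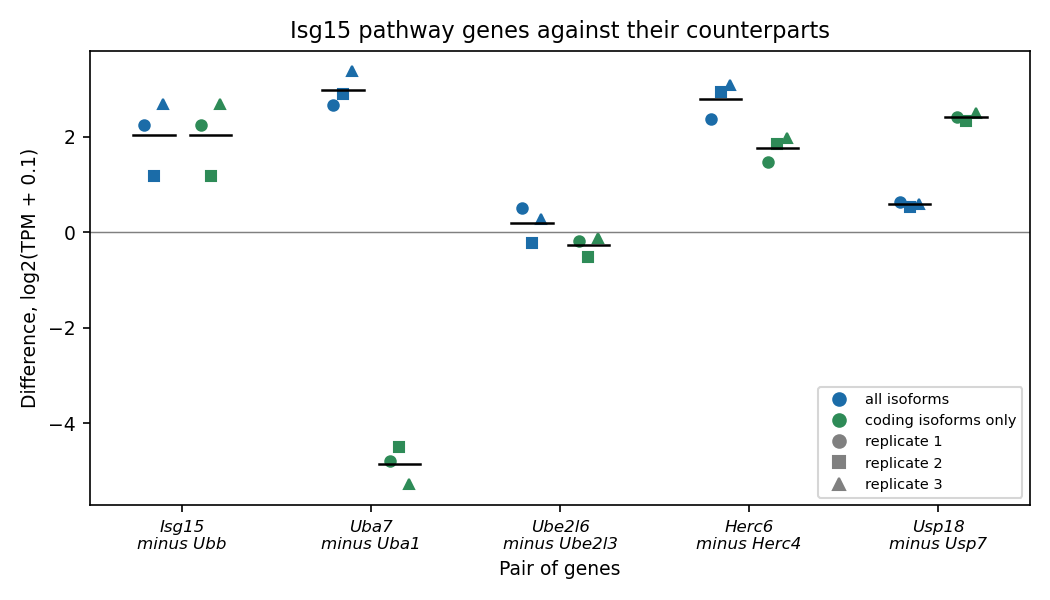
Difference in log2(TPM + 0.1) between each gene and its counterpart, over all isoforms (blue) and over protein-coding isoforms alone (green), with replicates 1, 2 and 3 as circle, square and triangle and means as bars. Uba7 lies 2.98 above Uba1 over all isoforms and far below it over coding ones, where the distance is set in part by the 0.1 added, and the Ube2l6 points lie on both sides of 0.

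The contrast of isoform classes was tested in all genes that have both kinds, as log2 of retained-intron over protein-coding TPM with 0.1 added to each. Of 5603 genes, 19.3% passed above 0 and 29.7% below it at an adjusted p of 0.05 (limma, Benjamini-Hochberg), with a median of -0.23. Uba7 lay at 7.68, 7.67 and 9.17 in replicates 1, 2 and 3 (mean 8.17, SE 0.39, limma adjusted p = 0.000400), the second highest of the 5603 genes. Since its coding level is so low, the size of that ratio depends on the pseudocount and the table: it was 6.77 with 1 added in place of 0.1 and 9.87 by the other quantifier, with limma adjusted p of 4.62e-05 and 0.000101. Herc6 lay at 2.00, 2.42 and 2.63 (2.35, SE 0.28, limma adjusted p = 0.00236). Ube2l6 lay below 0, at -0.87, -2.34 and -1.40 (-1.54, SE 0.36, limma adjusted p = 0.0167), and without replicate 2 it no longer passed (-1.14, adjusted p = 0.0817). Usp18 lay at -0.35, -0.43 and -0.39 (-0.39, SE 0.26, limma adjusted p = 0.257) and did not pass, although its values in the 3 libraries were the closest together. Isg15, with a single isoform, could not be tested. The E1 and the E3 thus had more signal in models annotated as retained-intron than in coding ones, and the E2 had less. That class also takes in models that hold only part of an intron. The retained-intron models of Ube2l6 and Usp18 keep no intron whole, and neither do Herc6-204, Herc6-205, Herc6-206, Uba7-205, Uba7-208 and Uba7-212.

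**Figure D5:**
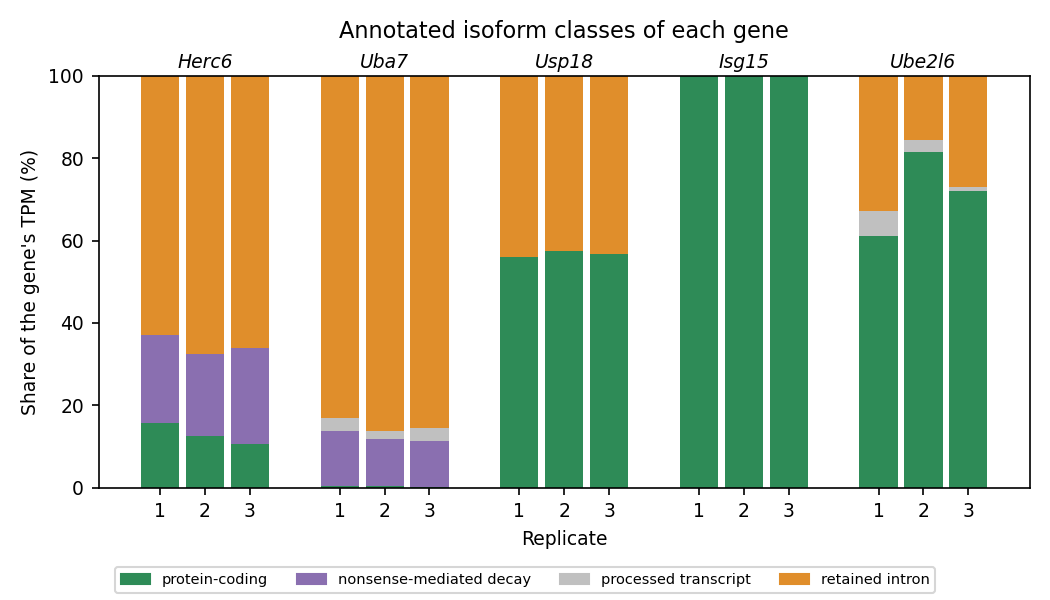
Share of each gene's TPM (%) held by isoforms annotated as protein-coding, nonsense-mediated decay, processed transcript and retained intron, 1 bar per library. Retained-intron models hold 84.8% of Uba7 and 65.5% of Herc6 on average, and Isg15 has only a coding model.

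With only coding isoforms counted, the levels were 67.4 ± 18.5 TPM for Isg15, 63.5 ± 9.18 for Usp18, 43.2 ± 11.2 for Herc6, 10.2 ± 3.92 for Ube2l6 and 0.477 ± 0.201 for Uba7 (SD, n = 3). That alternative was added after the isoform tables were seen. The whole level of Isg15 enters it, since its single annotated isoform is coding, so the place of Isg15 depends on the annotation. Isg15 and Usp18 were then not told apart, with a log2 difference of Usp18 over Isg15 of 0.04, -0.61 and 0.38, and replicate 2 gave the negative value. Over all isoforms, each neighbour in the order differed in the same direction in 3 of 3 libraries. The order was taken from mean TPM in these same libraries. The direction of each step was thus largely set beforehand, and the p-values for these pairs do not test the order. Herc6 exceeded Uba7 1.75-fold (log2 0.81 ± 0.17), Uba7 exceeded Usp18 1.69-fold (0.76 ± 0.33), Usp18 exceeded Isg15 1.69-fold (0.76 ± 0.52) and Isg15 exceeded Ube2l6 4.84-fold (2.27 ± 0.45). The exact sign-flip p, two-sided, was 0.25 for each (adjusted 0.25 over 4 pairs), the smallest value possible with 3 libraries. The step from Usp18 to Isg15 was 0.87, 0.19 and 1.2, smallest in replicate 2, and averaged 1.04 without it. The sizes of these steps depend on the table. By the other quantifier Uba7 minus Usp18 was 0.24, with Uba7 below Usp18 in replicate 1 (157 against 162 TPM), Usp18 minus Isg15 was 1.33 and Isg15 minus Ube2l6 was 0.74. By counts not divided by length these 3 steps were 1.74, 1.59 and 1.26. Across libraries the gene-table ranges of Herc6 (226 to 526 TPM) and Uba7 (136 to 262 TPM) overlapped, while those of the other neighbours in the order did not.

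Whether the genes of the set vary together between libraries turned on the scaling. By the other quantifier all 5 had their highest TPM in replicate 3, and by the gene table all but Isg15 did. Their counterparts Uba1, Herc4 and Usp7 were also highest in replicate 3 by both tables. Ube2l3 was so by the other quantifier only, and Ubb by neither. The share of all genes highest in replicate 3 was not computed, so this pattern does not set the 5 genes apart. Scaled by TMM library sizes, Isg15 stood at 40.4, 45.5 and 26.4 CPM (scaled counts, not divided by length), lowest in replicate 3, and Herc6 at 643, 760 and 1208, highest there. Uba7 was also highest in replicate 3 (335, 338 and 436), Ube2l6 in replicate 2 (12.1, 18.4 and 15.8) and Usp18 in replicate 1 (131, 94.0 and 106). All 5 varied beyond counting error by a chi-square test over all genes, as did 68.8% of the 14189 genes tested, so passing it does not set them apart. Herc6 had a coefficient of variation beyond counting of 34.2%, against a median of 16.2% among 174 protein-coding genes within a factor of 2 of its count, and above 92.0% of them. Of its 11544, 15529 and 29098 counts in replicates 1, 2 and 3, the intron block Herc6-202 held 6289, 10733 and 21813. The spread of Herc6 without that block was not tested. Isg15 came to 26.2% against a median of 15.02%, while Uba7 (15.5%), Usp18 (17.1%) and Ube2l6 (19.7%) lay near the medians of genes of like count (15.6%, 14.5% and 17.5%).

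On the TMM scale, the mean profile of the 5 genes over the libraries was nearly flat, at -0.09, 0.02 and 0.06 on a centred log2 scale. The 5 genes nearest to it among 7154 candidates were Pum3, Ift52, Mto1, Gmps and Polr2e, at distances of 0.00625 to 0.0119. The members themselves lay 0.24 to 0.65 away. Those genes were picked as the nearest, so members lying farther is not a result. In replicate 3 the members ran from -0.47 (Isg15) to 0.53 (Herc6), so the flat mean averages opposed profiles. With 3 libraries closeness of profiles carries little.

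Genes around the set were read from fixed lists. All 10 genes of the interferon signal were at 1 TPM or more in every library, with Stat2 (397 ± 53.5 TPM) highest, Irf7 at 179 ± 62.2 TPM and Ifnb1, the interferon beta gene itself, lowest at 8.76, 11.3 and 6.96 TPM (SD, n = 3). The median of that list was 65.8 TPM. Of its 7 genes with both isoform classes, 2 passed the retained-intron contrast above 0 and 1 below, beside 19.3% and 29.7% of all genes tested. Irf7, an interferon-stimulated transcription factor, lay at 2.61 (limma adjusted p = 0.00146).

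Of 16 proteins known to be ISGylated, all had genes at 1 TPM or more in every library, with a median of 71.6 TPM. The antiviral GTPase gene Mx1 stood at 1841, 1996 and 2908 TPM, above each of the 5 conjugation genes in every library, followed by Ifit1 (191 ± 56.1 TPM), which binds viral RNA ends. Chmp5, of the ESCRT machinery, was lowest at 7.01 ± 2.50 TPM. In the isoform contrast 3 of 9 passed above 0 and 1 below, beside the same 19.3% and 29.7%.

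Of 14 other enzymes and partners linked to ISG15, 11 reached 1 TPM in every library. After Stat2, the list was led by Trim25 (153 ± 30.6 TPM), a ligase of the RIG-I pathway that is itself ISGylated, and Ifnar1 (72.0 ± 24.0 TPM; SD, n = 3), and the protease gene Usp13 was lowest at 0.01 TPM. In the isoform contrast 4 of 8 passed above 0 (19.3% of all genes tested). Within the enzyme families, 3 of 7 E1 genes passed above 0 and 2 below, as did 6 and 3 of 23 E2 genes, 2 and 2 of 5 HERC genes, and 7 and 9 of 33 proteases, counts that include the members.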

How the data were processed

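The authors' gene and transcript tables hold deposited expected counts (reads shared out among features, with posterior SDs in counts) and TPM, and each isoform's percent of its gene's TPM. A deposited note says they come from transcriptome alignments to mm10 with GENCODE M21. Further deposited transcript tables, called the other quantifier, give estimated counts and TPM that the authors obtained from the reads without those alignments. Which tools, versions and strand setting were used is not given in the sources used here. TPM divides by effective length and sums to a fixed total per library.

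Entries without an annotated gene (0.874%, 0.310% and 0.215% of counts in replicates 1, 2 and 3) entered neither library sizes nor tests, and annotated totals were 19745213, 20367101 and 21976578. Expected counts were rounded for the chi-square test of spread with TMM-scaled library sizes (edgeR 4.0.16, mean count of at least 10). The isoform contrast used limma 3.58.1 on log2 ratios of TPM + 0.1 (mean count of at least 50). Single differences used exact sign-flip tests over 3 libraries. p-values were adjusted by Benjamini-Hochberg over all genes tested, or over the 4 or 5 pairs. On simulated data the chi-square test over 14189 genes called 55% of 1.5-fold and 99% of 3-fold changes, and the isoform contrast over 5603 genes 57% of shifts of 2 and 84% of shifts of 4 (log2). The simulated counts carried counting error only, with the change in replicate 2 alone. In these libraries 68.8% of genes varied beyond counting error, so the chi-square rates need not hold here. Isoform structures and sequences came from GENCODE M21 and RefSeq (GRCm38.p6), which held promoters of 4 of the 5 genes. Named genes were the 5 members, their counterparts, the highest 3 and lowest 1 of each list, the 5 most similar profiles and overlapping genes, except that some genes this rule names are not reported here. The members and lists were chosen with earlier results of these data known. Counting error only is covered by counts and posterior SDs, since reads are not independent molecules. Alternatives were the other quantifier, DESeq2 1.42.0 size factors, other filters and pseudocounts, leaving out each library, and coding isoforms alone.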

Additional observations from a re-analysis of the deposited data

How the results depend on the processing

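No paired analysis was possible because the labels give a single group. Counting protein-coding isoforms alone, chosen after seeing the data, turned 4 differences round, where those of Uba7 are set in part by the 0.1 added to its low coding level: Uba7 minus Usp18 to -6.83, Usp18 minus Isg15 to -0.063, Uba7 minus Uba1 to -4.85 and Ube2l6 minus Ube2l3 to -0.28 (log2). It also moved mean TPM to 0.477 for Uba7, 43.2 for Herc6 and 63.5 for Usp18. TPM rescaled to protein-coding genes was 308 for Isg15, 875 for Uba7, 62.6 for Ube2l6, 1565 for Herc6 and 515 for Usp18, higher by construction. The other quantifier gave means of 42.9 TPM for Ube2l6 and 175.5 for Usp18, and the cause was not tested. Leaving out 1 library moved mean TPM within 263 to 414 for Herc6, 56.7 to 72.8 for Isg15, 161 to 224 for Uba7, 12.6 to 16.3 for Ube2l6 and 103 to 117 for Usp18. The isoform contrast passed in 2750 genes, in 4646 by the other quantifier (7064 genes tested), and in 1566 to 2642 with 1 library left out, lowest without replicate 1. Genes varying between libraries numbered 9763, 9651 with DESeq2 size factors, 10237 without the filter and 13598 by the other quantifier, and 6682 to 7752 with 1 library left out. The call of Ube2l6 in the isoform contrast was lost without replicate 2 (-1.14, limma adjusted p = 0.0817); the cause was not tested. Of the other values recomputed for the main comparisons, 85 kept their direction or stayed near the main value. Many of these could not have come out otherwise. A mean level counted as near when it moved by less than its SD, which leaving out 1 of 3 libraries always satisfies. Nor can leaving out 1 library turn round a difference that has the same sign in every library. The count of 85 therefore says little about how stable the results are. Among the 85, differences between genes could still change in size, as Herc6 minus Uba7 (0.81, and 6.26 over coding isoforms). Depth limits Ube2l6, the coding isoform of Uba7 and the short isoforms, which rest on few counts.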
